A study of Homo sapiens with 12 samples.

Results

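The genes described here are 9 complement components and regulators, namely C3, CFB, C1R, C1S, SERPING1, CFI, CD55, CD46 and CD59, out of 26475 gene symbols in the count table. They were taken by symbol, and the list was selected on measured values of these same libraries, so their levels, fold changes and counts of calls are given as a description, with no p-value. RNA sequencing was performed on PA-1 and SK-OV-3, both lines of human ovarian cancer cells, after 48 h with 5 µM BAY-850, a small-molecule inhibitor of the chromatin regulator ATAD2, or with the vehicle DMSO. Each of the 4 groups (PA-1 DMSO, PA-1 BAY-850, SK-OV-3 DMSO, SK-OV-3 BAY-850) had 3 libraries described as biological replicates. The study describes SK-OV-3 as lacking p53 and PA-1 as carrying mutant p53. PA-1 cells were grown in DMEM and SK-OV-3 cells in RPMI, and each tumor type is represented by 1 line.

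The complement system is a cascade of proteins that marks and lyses foreign or damaged cells. In the classical pathway, the proteases C1r and C1s are activated on bound antibody. In the alternative pathway, factor B combines with cleaved C3 to form the enzyme that cleaves more C3. Liver is the main source of the plasma proteins, but many epithelial cells make them under inflammatory cytokines. Host cells protect themselves with soluble inhibitors and with the membrane proteins CD55, CD46 and CD59, which many tumor cells carry at high levels.

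Library totals ranged from 34544505 to 51840233 counts, so a count of 3 corresponded to 0.0559 to 0.0868 CPM (the count scaled to a common library size with TMM factors, which correct for library composition). SK-OV-3 BAY-850 replicate 3 stood apart, with the highest total and counts in 15629 genes, against 17425 to 18414 in the other 11 libraries. Values without it are therefore given beside the SK-OV-3 values of complement genes. All 5 embryonal markers, among them LIN28A and SOX2, had a mean of at least 1 CPM in PA-1. The same held in SK-OV-3 for all 7 epithelial carcinoma markers, among them KRT7 and PAX8. Of these 7, 4 also reached that level in PA-1, and of the 5 embryonal markers 1 (POU5F1) did in SK-OV-3. The POU5F1 means in SK-OV-3 were 6.74 CPM under DMSO and 8.16 CPM with BAY-850. With BAY-850 the summed level of the 7 epithelial markers in SK-OV-3 went from 4349 to 4648 CPM to 3200 to 3681 CPM. Of these markers, KRT8, KRT19, EPCAM and ERBB2 fell (log2 fold changes of -0.51, -0.67, -0.98 and -0.43). PAX8 rose (0.55), and KRT7 (-0.14) and KRT18 (-0.15) were lower but not called. The part of these changes in the complement values was not tested.

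Upstream sequence was available for 6 of the 9 genes in RefSeq (GRCh38.p14), as 11 windows of 250 bases before an annotated transcription start. The following motifs were searched on both strands: the STAT-binding GAS element TTCNNNGAA, the core of the interferon response element GAAANNGAA, the NF-kB element GGGNNNTTCC, and the C/EBP element TTGCNNAA. These occurred in 6.57%, 6.88%, 5.67% and 9.05% of 35116 windows of the same length. The CFB and C1R matches are shown because these genes had higher levels with BAY-850 in SK-OV-3, and the CD59 matches because that gene did not. Each stretch of 30 bases is written 5′ to 3′ on the strand of the gene, with the matching letters in capitals.
CFB, interferon response core, chr6:31945946-31945975, plus strand: cttctgcagtTTCTGTTTCcttgactggca
CFB, GAS element, chr6:31945993-31946022, plus strand: cgcttggatgTTCCGGGAAagtgatgtggg
C1R, GAS element, chr12:7091960-7091989, minus strand: gccagtcctaTTCCTGGAAggggaggggag
C1R, C/EBP element, chr12:7092042-7092071, minus strand: cccagacgctcTTGCTGAAcctgtgggagc
C1R, C/EBP element, chr12:7092533-7092562, minus strand: agatcttttgtTTATGCAAatagttcattc
CD59, C/EBP element, chr11:33722984-33723013, minus strand: aacttacaaagTTGCTCAAtacctctcttc
CD59, C/EBP element, chr11:33723122-33723151, minus strand: atgctttgtacTTAGGCAAgttcaaaacct
CD59, GAS element, chr11:33736588-33736617, minus strand: ccacccggccTTCTCAGAAcctgggccagg
In CFB the interferon response core lay 139 to 131 bases and the GAS element 92 to 84 bases before the start. No match to these letters was found in the windows of CFI, CD55 or CD46, and no window of any of the 6 genes held the NF-kB letters. Some transcripts in GENCODE begin farther upstream, so the CFB and CD55 windows lie wholly within the gene bounds of that annotation. The CFI window lies partly within them, and the C1R and CD59 windows wholly or partly. Both CFB matches shown are thus within the gene bounds. Whether the sequence within the bounds is exonic or intronic was not examined. A match is a description of letters and was not tested as a binding site.

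C3 (chromosome 19, 6677704 to 6730562, GRCh38, minus strand) encodes the central protein on which all activation pathways converge. In SK-OV-3, the DMSO libraries held 56.4, 63.2 and 59.6 CPM and the BAY-850 libraries 323, 307 and 319 CPM. The groups were far apart, and the lowest BAY-850 library was well above the highest DMSO library. The fitted log2 fold change was 2.42 (SE 0.060), a 5.34-fold higher level, and 2.40 without replicate 3. In PA-1, the DMSO libraries held 1.88, 2.57 and 1.67 CPM and the BAY-850 libraries 1.60, 1.88 and 2.39 CPM. The PA-1 groups overlapped, at a low level, with a log2 fold change of -0.06 (SE 0.27). As these are bulk samples, a change in the number of expressing cells and a change in RNA per cell cannot be told apart.

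CFB (chromosome 6, 31945650 to 31952084, plus strand) encodes factor B, the protease subunit of the alternative pathway convertase. In SK-OV-3 its level was 16.8, 18.9 and 17.5 CPM under DMSO and 42.6, 43.5 and 45.6 CPM with BAY-850. The BAY-850 libraries were all higher, with a log2 fold change of 1.32 (SE 0.083), or 1.28 without replicate 3. In PA-1 its level was 2.95, 2.44 and 2.63 CPM under DMSO and 2.21, 2.59 and 1.55 CPM with BAY-850. These overlapped, and the fitted log2 value of -0.33 had an SE of 0.25. The factor B gene therefore shared with C3 a higher level in every treated SK-OV-3 library and no separation in PA-1.

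C1R and C1S encode the paired proteases of the C1 complex, and their genes lie tail to tail on chromosome 12 with 9.17 kb between them (C1S 6988259 to 7071032, plus strand, and C1R 7080199 to 7092607, minus strand). C1R in SK-OV-3 was at 6.97, 6.72 and 6.27 CPM under DMSO and at 17.0, 16.8 and 17.3 CPM with BAY-850. Its treated libraries were all higher and nearly equal, with a log2 fold change of 1.37 (SE 0.12). C1S in SK-OV-3 was at 5.48, 6.19 and 6.61 CPM under DMSO and at 12.4, 11.2 and 14.7 CPM with BAY-850. C1S also did not overlap, with a log2 fold change of 1.08 (SE 0.15). Without replicate 3 the values were 1.34 for C1R and 0.95 for C1S. In PA-1, C1R ranged from 6.76 to 7.78 CPM under DMSO and from 6.28 to 8.90 CPM with BAY-850, and C1S from 2.52 to 4.01 and from 2.71 to 4.60 CPM. Both genes overlapped between the PA-1 groups, with log2 fold changes of -0.01 (SE 0.15) for C1R and 0.11 (SE 0.24) for C1S.

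SERPING1 (chromosome 11, 57597387 to 57614853, plus strand) encodes C1 inhibitor, which inactivates C1r and C1s. PA-1 held 82.6, 87.4 and 94.7 CPM under DMSO and 85.2, 92.6 and 107 CPM with BAY-850. These ranges overlapped, with a log2 fold change of 0.11 (SE 0.081). SK-OV-3 held only 2.16, 1.16 and 2.36 CPM under DMSO and 2.78, 2.70 and 4.06 CPM with BAY-850. The SK-OV-3 groups did not overlap, but the fitted log2 value of 0.76 had an SE of 0.33, and it was 0.53 without replicate 3. The inhibitor thus had the opposite order between lines to C3 and CFB.

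CFI (chromosome 4, 109740694 to 109802179, minus strand) encodes factor I, the protease that degrades C3b and C4b. In SK-OV-3 it was at 5.51, 7.70 and 5.83 CPM under DMSO and at 5.04, 4.38 and 1.45 CPM with BAY-850. All treated libraries were lower, and the lowest value was that of replicate 3. The log2 fold change was -0.81 (SE 0.36), and -0.43 (SE 0.18) without that library, so its size rested largely on it. In PA-1, 5 counts were found in DMSO replicate 2, 12 and 9 in BAY-850 replicates 2 and 3, and 0 in the other 3 libraries. CFI was below the filter for testing in PA-1, and no fold change is given there.

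CD55 (chromosome 1, 207321376 to 207386804, plus strand) encodes decay-accelerating factor, which dissociates the C3 convertases. In SK-OV-3 it was at 124, 133 and 123 CPM under DMSO and at 179, 191 and 197 CPM with BAY-850. The treated libraries were all higher, with a log2 fold change of 0.59 (SE 0.061), or 0.55 without replicate 3. In PA-1 it was at 42.9, 43.3 and 39.9 CPM under DMSO and at 33.0, 34.9 and 37.3 CPM with BAY-850. Here every treated library was lower, with a log2 fold change of -0.26 (SE 0.070). Of the 8 genes tested in both lines, CD55 was the only one whose groups separated in opposite directions in the 2 lines.

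CD46 and CD59 complete the membrane inhibitors. CD46 (chromosome 1, 207752057 to 207795513, plus strand), 365 kb from CD55, encodes membrane cofactor protein, which helps factor I to cleave C3b. Its levels in SK-OV-3 were 143, 149 and 161 CPM under DMSO and 145, 155 and 160 CPM with BAY-850, and in PA-1 68.5, 72.0 and 71.0 CPM and 69.7, 68.4 and 61.0 CPM. CD46 overlapped between treatments in both lines, with log2 fold changes of 0.04 (SE 0.062) and -0.09 (SE 0.064), the first being -0.01 without replicate 3. CD59 (chromosome 11, 33703010 to 33736491, minus strand) encodes the protein that blocks assembly of the membrane attack pore. Its levels in SK-OV-3 were 397, 382 and 380 CPM under DMSO and 370, 376 and 360 CPM with BAY-850, and in PA-1 109, 105 and 105 CPM and 101, 102 and 97.5 CPM. The treated libraries were lower in both lines by a small margin, with log2 fold changes of -0.05 (SE 0.044, unchanged at -0.05 without replicate 3) and -0.08 (SE 0.055).

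**Figure D1:**
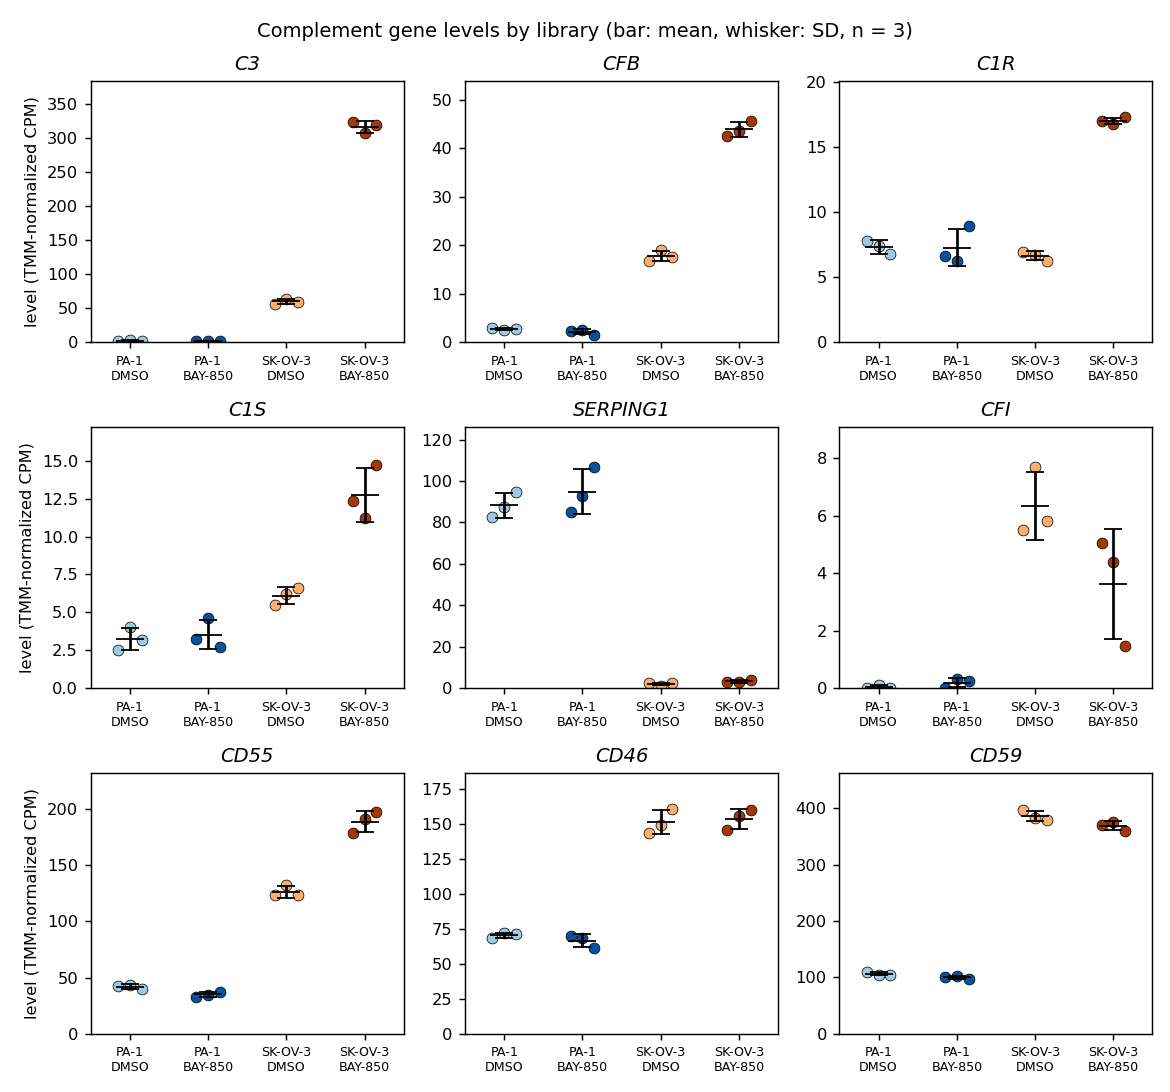
TMM-normalized CPM (vertical axis, from 0) of each of the 9 genes in the 12 libraries, by group, with points for libraries, bars for means and whiskers for SD (n = 3). C3 in SK-OV-3 lies between 56.4 and 63.2 CPM under DMSO and between 307 and 323 CPM with BAY-850, while SERPING1 is high in PA-1 alone.

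In SK-OV-3, 5 of the 9 genes (C3, CFB, C1R, C1S and CD55) were called at an adjusted p under 0.05, all of them higher, where 20.4% of 15348 genes were called in either direction and 10.8% were called higher. In PA-1, 1 of 8 tested genes (CD55, lower) was called, where 7.13% of 15212 genes were. The replicates of the 2 treatments did not overlap for 8 of 9 genes in SK-OV-3 (6 higher, 2 lower), beside 38.6% of all genes, and for 2 of 8 tested genes in PA-1, beside 27.5%. Since the genes were selected on these contrasts, nothing is read from these counts. The median log2 fold change of the tested genes was 0.76 in SK-OV-3 and -0.07 in PA-1, against -0.00909 and -0.00192 over all genes tested. For the same reason, nothing is read from these medians.

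**Figure D2:**
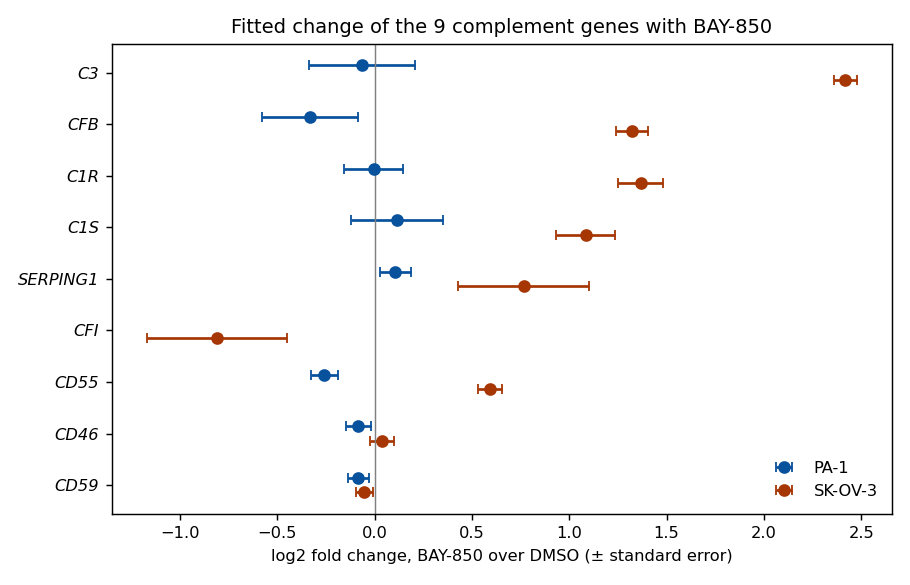
Fitted log2 fold change of BAY-850 over DMSO for the 9 genes in SK-OV-3 (red-brown) and, without CFI, in PA-1 (blue). The fold change is on the horizontal axis, with whiskers for standard error (3 against 3 libraries). C3 in SK-OV-3 is farthest to the right at 2.42, CFI is at -0.81, and the PA-1 points lie between -0.33 and 0.11.

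The difference between the responses of the lines was fitted over all 12 libraries as an interaction, SK-OV-3 minus PA-1 on the log2 scale. It was 2.49 (SE 0.19) for C3, 1.64 (SE 0.20) for CFB, 1.36 (SE 0.21) for C1R and 0.84 (SE 0.088) for CD55. These 4 of the 9 genes were called, beside 14.5% of 16830 genes, and nothing is read from that count because the genes were selected on these values. C1S at 0.95 (SE 0.31) and SERPING1 at 0.66 (SE 0.26) had larger errors relative to their size. CD46 and CD59 were near 0, at 0.11 (SE 0.089) and 0.02 (SE 0.063). CFI is left out of this list because its PA-1 counts were at or near 0.

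Under DMSO, 8 of the 9 genes were called between the lines, where 80.3% of 16070 genes were, and line, culture medium and tumor of origin cannot be told apart. Between the DMSO groups, SK-OV-3 was higher by 4.84 (SE 0.13) on the log2 scale for C3, by 2.73 for CFB, by 1.86 for CD59, by 1.59 for CD55, by 1.10 for CD46 and by 0.90 for C1S. SERPING1 was the exception, lower in SK-OV-3 with a log2 difference of -5.54 (SE 0.15). C1R overlapped between the lines, with a log2 difference of -0.14 (SE 0.15). CFI was at 5.51 to 7.70 CPM in SK-OV-3 and at 0 to 0.111 CPM in PA-1.

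To compare genes with each other, CPM was divided by the length in kb of the longest coding transcript. Which transcripts were expressed was not examined, and the SDs do not include the uncertainty of this choice of length. In SK-OV-3 with DMSO, the order by mean CPM per kb was CD59 (50.6 ± 1.2, SD, n = 3), CD46 (44.8 ± 2.60), CD55 (43.8 ± 1.83), C3 (11.4 ± 0.645), CFB (6.20 ± 0.374), CFI (2.94 ± 0.548), C1R (2.50 ± 0.132), C1S (1.98 ± 0.185) and SERPING1 (0.850 ± 0.287). The neighbors CD46 and CD55, and CFI and C1R, were within their spread. With BAY-850, CD55 (65.3 ± 3.26) and C3 (60.1 ± 1.61) stood first, followed by CD59 (48.3 ± 1.05) and CD46 (45.5 ± 2.17). CD59 and CD46 were within their spread here. C3 moved from the 65.1 percentile of 14391 genes with a length to the 93.3 percentile. CFB followed at 15.3 ± 0.548 CPM per kb, and C1R, C1S, CFI and SERPING1 lay between 6.39 and 1.43. In PA-1, SERPING1 was the highest under both treatments (39.6 ± 2.74 and 42.5 ± 4.95), and C3 was the lowest of the 8 tested genes (0.388 ± 0.090 and 0.372 ± 0.077). The inhibitors CD46, CD55 and CD59 came after SERPING1 in PA-1, at 20.9, 14.5 and 13.9 CPM per kb with DMSO.

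**Figure D3:**
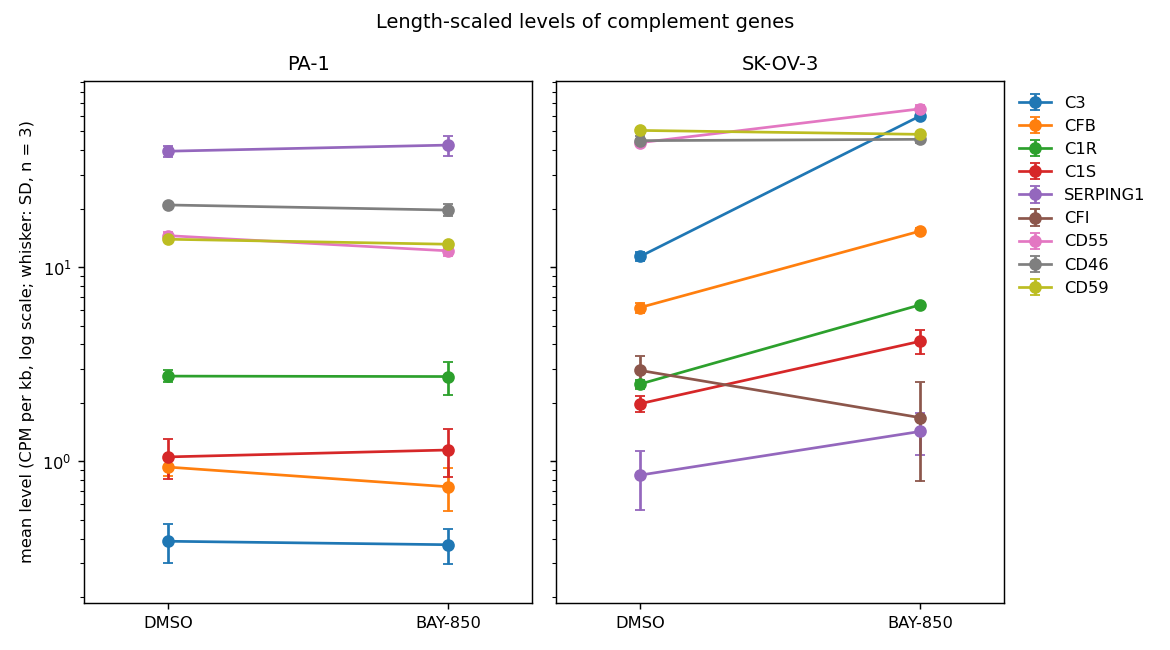
Mean CPM per kb (log axis, whiskers for SD, n = 3) with DMSO and BAY-850 in PA-1 (left, without CFI) and SK-OV-3 (right). In SK-OV-3 the line of C3 climbs from 11.4 to 60.1 into the range of CD55, CD46 and CD59, whereas the PA-1 lines are nearly flat.

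The genes whose log2(CPM + 0.5) over the 12 libraries was most like that of C3 were PARP14, PHLDA1, IFI6, IRF9 and ZNF83, with Pearson r from 0.996 to 0.997 among 14092 genes. All 12 points belong to 4 groups that differ in line and treatment, so r mainly records the order of group means. Among the other 8 genes, CD55 (r = 0.992, rank 37) and CFB (r = 0.992, rank 40) were nearest to C3, and SERPING1 was the farthest (r = -0.926).

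The other 48 genes of the complement list were read in the same fits, with edgeR's quasi-likelihood test and Benjamini-Hochberg adjustment over all genes tested. Of these, 29 were tested in no comparison and never passed 0.556 CPM in any library, and 7 of them had a count of 0 in all libraries. The untested genes included C1QA, C1QB and C1QC, which encode the antibody-recognizing part of C1, and C6, C7, C8A, C8B and C9, which build the membrane pore. Thus C1R and C1S were measured in both lines while the 3 genes of their partner C1q did not pass 0.447 CPM. That highest value was C1QC in SK-OV-3 BAY-850 replicate 3 (24 counts), where C1QB had 22 counts. In SK-OV-3 BAY-850 replicates 1 and 2, C1QB and C1QC had 0 counts.

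In SK-OV-3, 3 of 16 tested genes of this list changed, 2 of them higher and 1 lower, a share of 18.8% beside 20.4% of all genes tested. The 2 that rose were ITGAX and ITGB2. They encode the chains of complement receptor CR4, which binds C3 fragments. ITGAX was at 0.726 to 1.03 CPM under DMSO and 1.92 to 3.13 CPM with BAY-850, and rose by 1.55 (SE 0.36, adjusted p = 0.0104). Its call was lost without DMSO replicate 3 (adjusted p = 0.0519) or BAY-850 replicate 2 (adjusted p = 0.0603). ITGB2 was at 3.84 to 6.35 and 8.10 to 10.3 CPM, and rose by 0.88 (SE 0.20, adjusted p = 0.00861). Without BAY-850 replicate 3 the values were 1.71 for ITGAX and 0.95 for ITGB2.

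In PA-1, 1 of 16 tested genes of the list changed, a share of 6.25% beside 7.13% of all genes tested. C4A, one of the near-identical copies that encode C4, was at 2.20, 2.20 and 2.49 CPM under DMSO and at 1.02, 0.407 and 1.18 CPM with BAY-850. It fell by 1.39 on the log2 scale (SE 0.36, adjusted p = 0.0302). The second copy, C4B, went the other way, from 0.599 to 1.01 CPM with DMSO to 1.48 to 1.83 CPM with BAY-850, with a log2 value of 1.02 (adjusted p = 0.0836). Reads of such copies are divided between them by the counting program, so the value of either is uncertain. Their sum was 3.10 ± 0.264 CPM under DMSO and 2.48 ± 0.238 CPM with BAY-850 (SD, n = 3). The C4A call was lost when any PA-1 library other than BAY-850 replicate 3 was left out (adjusted p from 0.0528 to 0.107).

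**Figure D4:**
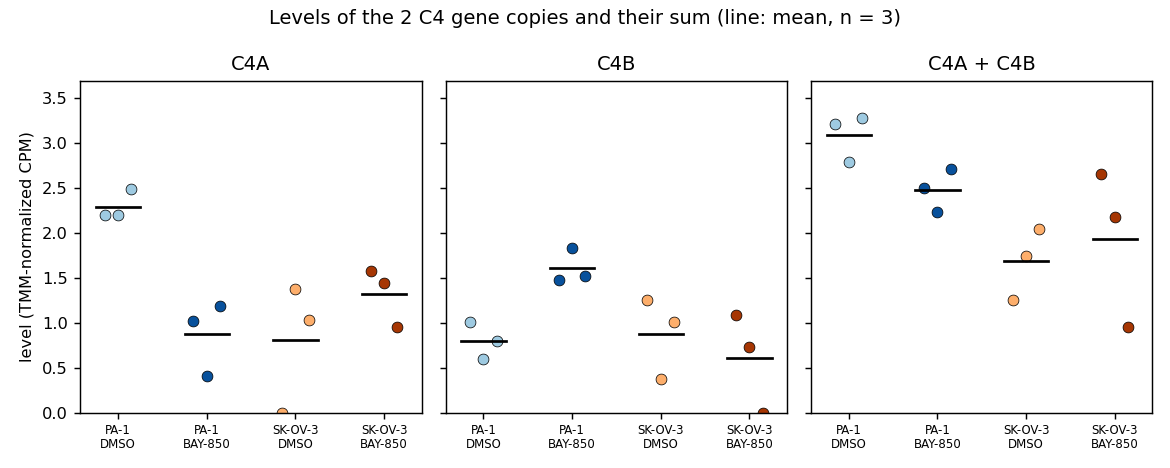
TMM-normalized CPM of C4A, C4B and their sum (vertical axis) in each library, by group, with lines for means (n = 3). In PA-1 the C4A points go down and the C4B points go up with BAY-850, and the mean of the sum is 3.10 with DMSO and 2.48 with BAY-850.

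The response of 2 of 19 tested genes of the list differed between the lines, a share of 10.5% beside 14.5% of all genes tested. MASP1, a protease of the lectin pathway, had an interaction of 1.63 (SE 0.45, adjusted p = 0.0249), from a mean of 3.52 to 2.94 CPM in PA-1 and 0.609 to 1.58 CPM in SK-OV-3. C5, which starts the terminal pathway, had an interaction of -1.35 (SE 0.40, adjusted p = 0.0355), from 4.94 to 6.35 CPM in PA-1 and 1.2 to 0.611 CPM in SK-OV-3. Neither passed the test within a line. The MASP1 call was lost without PA-1 DMSO replicate 1 or 3, any PA-1 BAY-850 replicate, or SK-OV-3 DMSO replicate 2 (adjusted p from 0.0504 to 0.0611). The C5 call was kept only without PA-1 BAY-850 replicate 3 or SK-OV-3 BAY-850 replicate 1, and the adjusted p was 0.0537 to 0.109 without any other library. Without SK-OV-3 BAY-850 replicate 3 the interactions were 1.39 and -1.14. Under DMSO, 10 of 18 tested genes of the list differed between the lines, 3 higher in SK-OV-3 and 7 lower, a share of 55.6% beside 80.3% of all genes tested.

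**Figure D5:**
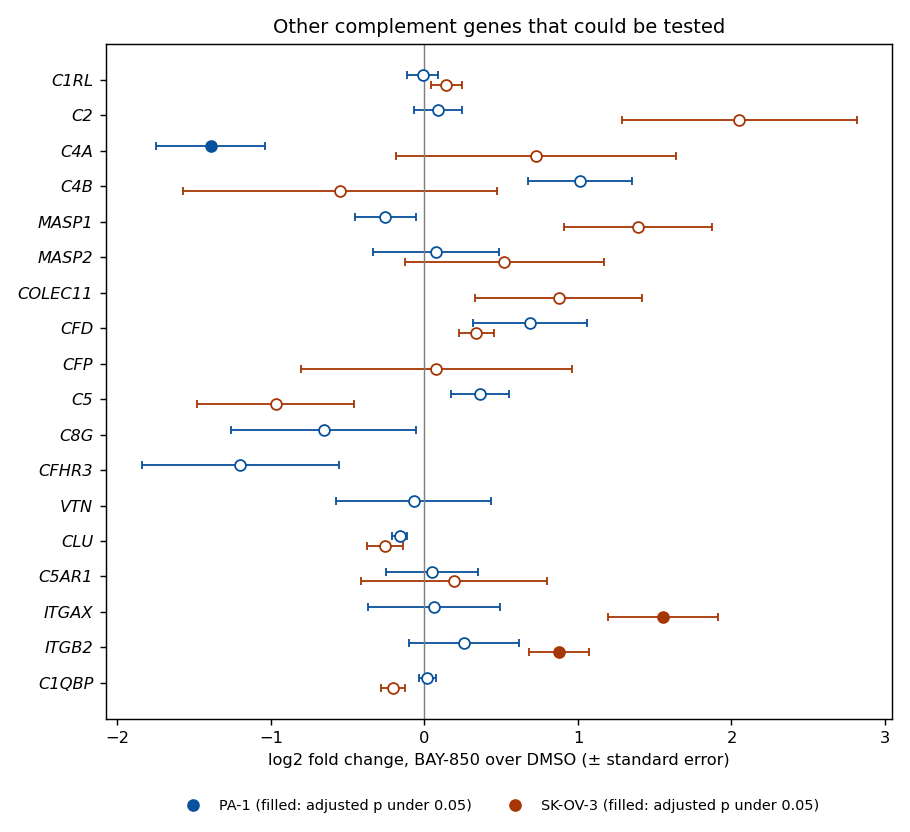
Fitted log2 fold change of BAY-850 over DMSO (horizontal axis, whiskers for standard error) for the complement genes outside the 9 that are reported here and could be tested in PA-1 (blue) or SK-OV-3 (red-brown), filled where the adjusted p was under 0.05. The filled points are C4A at -1.39 in PA-1 and ITGB2 at 0.88 and ITGAX at 1.55 in SK-OV-3.

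Genes known to raise transcription of C3 or CFB were read beside them. In SK-OV-3, 8 of 10 tested regulators rose, where 10.8% of all genes tested were called higher. On the log2 scale, the largest of these changes were those of the cytokine genes IL1B, at 3.63 (SE 0.15, adjusted p = 5.59e-08), with means of 1.56 and 19.2 CPM, and TNF, at 1.65 (SE 0.26, adjusted p = 0.00108). The transcription factor genes CEBPD (0.96), CEBPB (0.81) and IRF1 (0.57) also rose. IL6, the most abundant cytokine gene of the list in SK-OV-3, had means of 34.2 CPM under DMSO and 29.3 CPM with BAY-850, with every treated library lower and a log2 value of -0.21 (SE 0.081, adjusted p = 0.0977). In PA-1, 1 of 8 tested regulators was called, beside 7.13% of all genes called in either direction. It was RELA, which rose by 0.48 (SE 0.075, adjusted p = 0.00134). RELA also rose in SK-OV-3, by 0.24 (SE 0.055, adjusted p = 0.00985), and its interaction was not called (adjusted p = 0.0934). IL1B was at or under 0.0526 CPM in all PA-1 libraries. Of the acute phase genes, which liver and epithelia raise in inflammation, 6 of 8 tested rose in SK-OV-3, against the same 10.8% of all genes. These were SAA1 (2.96 on the log2 scale), SAA2 (2.93), LCN2 (2.84), PTX3 (1.90), SERPINA1 (1.40) and CP (1.23). These lists were written with earlier results known, and the part of these genes in the level of C3 or CFB was not tested.

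Markers of other cell types that make complement were read in the same libraries. PTPRC, the pan-leukocyte marker, was at 0 in all PA-1 libraries and at most 0.0984 CPM in SK-OV-3. Of 6 leukocyte and macrophage markers, CD68 alone had a mean of at least 1 CPM in SK-OV-3, and it moved with the treatment, from 28.6 to 39.0 CPM. The summed level of the 6 markers was 29.1 to 29.4 CPM under DMSO and 38.2 to 40.7 CPM with BAY-850. Of 4 hepatocyte markers, 0 reached a mean of 1 CPM in SK-OV-3, where their sum was 0.423 to 1.06 CPM under DMSO and 0.197 to 0.782 CPM with BAY-850. Of 4 fibroblast markers, COL1A1, COL1A2 and LUM reached that mean in SK-OV-3 and DCN was at most 0.0259 CPM there. Their sum was 180 to 189 CPM under DMSO and 88.4 to 117 CPM with BAY-850 in SK-OV-3, and 445 to 559 and 586 to 637 CPM in PA-1. In SK-OV-3, COL1A1, COL1A2 and LUM fell by 0.77, 1.15 and 2.25 on the log2 scale, while C3, C1R and C1S were higher. The part of CD68 or of the fibroblast markers in the level of C3, C1R, C1S, ITGAX or ITGB2 was not tested.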

How the data were processed

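Total RNA was measured by sequencing in 12 libraries. The labels describe oligo-dT purification and strand-specific libraries, while the series' design text names ribosomal RNA depletion. The authors deposited RSEM expected counts per gene symbol, and the submitters' processing notes name Bowtie2 2.1.0, RSEM 1.2.15 and hg38. The annotation was not given in the sources used here. RSEM divides reads among near-identical genes, such as C4A and C4B.

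Expected counts were rounded and tested with edgeR 4.0.16 (R 4.3.3): filterByExpr, TMM factors, and the quasi-likelihood test within each line, between the DMSO groups, and for the interaction over 12 libraries. P-values were adjusted by Benjamini-Hochberg over all genes tested, with calls at 0.05. An exact permutation test of 3 against 3 libraries cannot go below p = 0.1. The scripts were tested on simulated data. Standard errors and SDs include the variation between replicate libraries, while the 3-count floor covers counting error only. Genes were placed with GENCODE 29 (23899 symbols matched), which also gave lengths and GC content. Likeness to C3 used log2(CPM + 0.5) for genes with a mean of at least 1 CPM.

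The members and lists were chosen with earlier results of these data known. Named genes are the 9, every other complement gene called in a line or in the interaction, at most 6 called genes per regulator and acute phase list and comparison, and the 5 genes most like C3, except that a complement gene and a regulator, which stay in the counts, are not reported here. Promoters came from RefSeq. Alternatives were DESeq2 1.42.0, library size only, RLE factors, 2 other filters, the replicate number as a block, removal of a trend on GC content, all 12 libraries in 1 fit, and leaving out each library.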

Additional observations from a re-analysis of the deposited data

Results flagged for a closer look

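CD55 was lower in every BAY-850 library of PA-1 (log2 fold change -0.26) and higher in every BAY-850 library of SK-OV-3 (0.59). The fitted interaction of 0.84 (SE 0.088) is given without a p-value, since the gene was selected on these values. Among the other complement genes, the response to BAY-850 differed between the lines for MASP1 (log2 interaction 1.63, SK-OV-3 minus PA-1) and C5 (-1.35). Both were weakly expressed in SK-OV-3, and leaving out libraries changed these calls.

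Among the regulators, the interaction was 1.98 for TNF (adjusted p = 0.00713), 0.80 for CEBPB, 0.72 for CEBPD and 0.40 for IRF1, and among the acute phase genes it was 1.63 for PTX3 (adjusted p = 0.016). For 4 further acute phase genes the interaction rested on groups at or near 0, so its size depends on the prior count. SAA1, at 6.20, had means of 0.0289 and 0 CPM in PA-1 against 1.89 and 14.6 CPM in SK-OV-3. LCN2, at 3.40, had 0.180 and 0.127 CPM in PA-1 against 3.49 and 24.9 CPM in SK-OV-3. SERPINA1, at 2.52, had 0.347 and 0.150 CPM in PA-1 against 6.32 and 16.5 CPM in SK-OV-3. A2M, at 6.31, was at 0 in all SK-OV-3 DMSO libraries and at a mean of 0.242 CPM with BAY-850, and at 12.1 and 13.1 CPM in PA-1.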

How the results depend on the processing

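C3, CFB, C1R, C1S, SERPING1 and CD55 kept a higher fitted level in SK-OV-3 under all 14 alternatives, with C3 between 2.38 and 2.46, CFB between 1.28 and 1.38, C1R between 1.33 and 1.42, C1S between 0.95 and 1.18, SERPING1 between 0.51 and 0.95 and CD55 between 0.55 and 0.68. CFI stayed lower, between -1.12 and -0.43. CD55 in PA-1 stayed lower, between -0.31 and -0.20. With the GC trend removed, CD46 in PA-1 was at 0.02 and CD59 in SK-OV-3 at 0.03, neither being called in the reported fit, and CD46 in SK-OV-3 was at -0.01 without BAY-850 replicate 3. In PA-1 the fitted sign was kept in 12 of 14 alternatives for C3, 12 for C1S and 10 for C1R. The count of other complement genes called was 1 in PA-1, against 2 with at least 10 counts in every library, 2 with the GC trend removed, 0 with all 12 libraries in 1 fit, and 0 to 2 when a library was left out. In SK-OV-3 it was 3, against 5 with DESeq2, 7 with all 12 libraries in 1 fit, and 1 (without DMSO replicate 3) to 5 (without BAY-850 replicate 3) when a library was left out. For the interaction it was 2, against 4 with DESeq2, 1 with library size only, and 0 to 2 when a library was left out. The cause of these moves was not tested. Over all genes, the 1085 calls in PA-1 became 1737 with DESeq2, 466 with library size only, 546 with the GC trend removed, 683 with all 12 libraries in 1 fit, and 340 to 1228 when a library was left out, and the 3130 in SK-OV-3 became 1781 to 3902 when a library was left out. Replicate numbers did not pair the samples (correlations of same-numbered deviations from -0.028 to 0.004), and 1 of 6 samples correlated best with its own number. With the replicate block, the interaction count was 1, the SK-OV-3 count 3, the PA-1 count 1 and that between DMSO lines 12 against 10. CFI had 0 to 12 counts per library in PA-1, too few to be tested there at this depth.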
